A study of Homo sapiens with 12 samples.

Results

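The mismatch repair transcripts MSH6, MSH3, PMS2, PMS1, MLH3 and EXO1 were followed in 12 RNA-seq libraries of SW48 and OVK18 cells. They were taken by gene symbol, 6 of the 25343 genes in the deposited count table, and 6 of the 14199 genes that passed a filter on low counts and were tested. SW48 is a colorectal cancer line and OVK18 an ovarian cancer line, and both are used as models of cancers with microsatellite instability. All cells carried Cas9 and were harvested 72 h after transduction with a guide RNA. In each line, 2 libraries carried sgWRN2 and 2 carried sgWRN3, which both target the RecQ helicase gene WRN, against 2 libraries with sgCh2-2, a control guide aimed at an intergenic stretch of chromosome 2. The replicates are named A and B. The labels do not say whether they are separate cultures, so p-values measure the spread between these libraries, which may be technical. Transduced populations were sequenced in bulk, and fewer cells of a kind and less RNA per cell cannot be told apart.

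Mismatch repair corrects base mispairs and small loops left by DNA replication. MutS-type proteins recognise the lesion, MSH6 mainly for mispairs and short loops and MSH3 mainly for longer loops. MutL-type proteins follow. PMS2 carries the endonuclease activity that nicks the new strand, MLH3 also has an endonuclease and is best known from meiosis, and the part of PMS1 in human repair is less clear. EXO1 is the exonuclease that removes the stretch with the error, which replication factors then fill in. When the system fails, short repeats change length, and cells with such microsatellite instability are known to depend on WRN.

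Libraries held between 15423162 and 32581625 counts. WRN itself was measured in SW48 at 37.16 and 34.06 CPM (counts scaled to library size) with sgWRN2 and 42.34 and 56.93 CPM with sgWRN3, against 91.2 and 111.6 CPM with sgCh2-2. In OVK18, WRN was at 22.01 and 20.99 CPM with sgWRN2 and 22.17 and 22.97 CPM with sgWRN3, against 32.04 and 39.82 CPM with sgCh2-2. In the test over all genes described below, WRN was called lower with sgWRN2 in SW48 (log2 difference -1.51, SE 0.162, adjusted p = 0.000461). It was not called with sgWRN3 in SW48 (-1.03, adjusted p = 0.438), nor in OVK18 with sgWRN2 (-0.74, adjusted p = 0.0658) or sgWRN3 (-0.67, adjusted p = 1). A guide cuts DNA, so the transcript level is only an indirect check of the labels. Intestinal markers summed to between 200 and 241 CPM in SW48, with 5 of 8 above 1 CPM with sgCh2-2 and CDX1 at 0 counts, against 0.131 to 0.402 CPM in OVK18. Of 7 Mullerian and ovarian markers only 2 exceeded a mean of 1 CPM in OVK18 with sgCh2-2, and PAX8, WFDC2 and EMX2 were at 0 counts in its sgCh2-2 libraries and at 0.11 CPM or less in its other libraries, so the defining ovarian markers are partly absent. These markers summed to between 103 and 119 CPM in SW48, against 74.3 to 81.6 CPM in OVK18. Fibroblast markers summed to at most 0.577 CPM in SW48 and to between 410 and 481 CPM in OVK18. COL3A1, a fibrillar collagen gene, averaged 385.5, 433 and 435.9 CPM with sgWRN2, sgWRN3 and sgCh2-2 in OVK18 and made up most of that sum, PDGFRA averaged 22.77, 21.95 and 22.36 CPM, and COL1A1, COL1A2, DCN and LUM averaged at most 2.369 CPM in any OVK18 group. Leukocyte and endothelial markers summed to between 10.5 and 14 CPM in SW48 and between 4.19 and 6.53 CPM in OVK18.

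The promoters of EXO1, MSH6 and PMS2 are shown because they hold letters of the kind bound by E2F, the factor family that drives S phase transcription, and because EXO1 and MSH6 are the genes of the 6 that passed the test with sgWRN2 in SW48. The window of MSH3, which did not pass in any WRN-guide comparison, also holds such letters and is described below without its sequence. Each window runs from 250 bases before the RefSeq transcript start to 50 bases from it, on GRCh38.p14, and reads 5′ to 3′ on the gene's own strand. Capitals mark a match to TTTGGCGC, TTTCGCGC, TTTCCCGC or TTTGCCGC on either strand. The EXO1 window is chr1:241847954-241848253 on the plus strand, and the MSH6 window is chr2:47782895-47783194 on the plus strand. The PMS2 window is chr7:6009057-6009356 on the minus strand.
EXO1: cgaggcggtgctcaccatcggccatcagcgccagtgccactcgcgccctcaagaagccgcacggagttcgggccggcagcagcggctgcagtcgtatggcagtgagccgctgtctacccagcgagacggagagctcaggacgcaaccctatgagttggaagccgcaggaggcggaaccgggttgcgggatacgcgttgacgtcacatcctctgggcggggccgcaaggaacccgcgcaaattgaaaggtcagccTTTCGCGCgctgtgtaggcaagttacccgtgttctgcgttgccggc
MSH6: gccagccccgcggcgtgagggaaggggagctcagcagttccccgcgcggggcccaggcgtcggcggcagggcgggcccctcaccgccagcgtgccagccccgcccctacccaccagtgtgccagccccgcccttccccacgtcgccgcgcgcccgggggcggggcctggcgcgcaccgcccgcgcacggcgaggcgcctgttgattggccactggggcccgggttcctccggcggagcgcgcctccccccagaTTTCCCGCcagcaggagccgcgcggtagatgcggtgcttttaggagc
PMS2: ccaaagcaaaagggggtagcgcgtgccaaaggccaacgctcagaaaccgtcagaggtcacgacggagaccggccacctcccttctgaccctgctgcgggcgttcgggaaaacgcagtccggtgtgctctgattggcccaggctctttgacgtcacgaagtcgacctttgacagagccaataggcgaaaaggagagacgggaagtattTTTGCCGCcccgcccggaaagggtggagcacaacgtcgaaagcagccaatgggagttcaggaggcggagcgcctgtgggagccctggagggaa

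The EXO1 match lay 5 to 12 bases from the start counted as base 1, and the MSH6 match at bases 4 to 11, both at the first listed start. MSH3 held an overlapping pair of matches, 107 to 100 and 103 to 96 bases before its start. PMS2 held 1 match, 43 to 36 bases before its first listed start, and it overlaps a GC box on the other strand. The windows of PMS1 and MLH3 held none of these letters, nor did those of the later listed starts of EXO1 and MSH6. Such letters occurred in 3.31% of the 35116 RefSeq windows of the same length, a share not matched for GC content. The windows shown held 65% (EXO1), 78% (MSH6) and 60.7% (PMS2) GC. The CCAAT box, spelled CCAAT, was in the first-start windows of MSH6, PMS2 and PMS1 and in 34.6% of all windows. The GC box, spelled GGGCGG, was in those of EXO1, MSH6, MSH3, PMS2 and PMS1 and in 45% of all windows. The CHR element of mitotic genes, searched as TTTGAA or TTCGAA, was in no window of the 6 genes and in 16.4% of all. A match describes the letters in a window and does not show that a factor binds there. The motifs were chosen with earlier results of these data known.

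**Figure D1:**
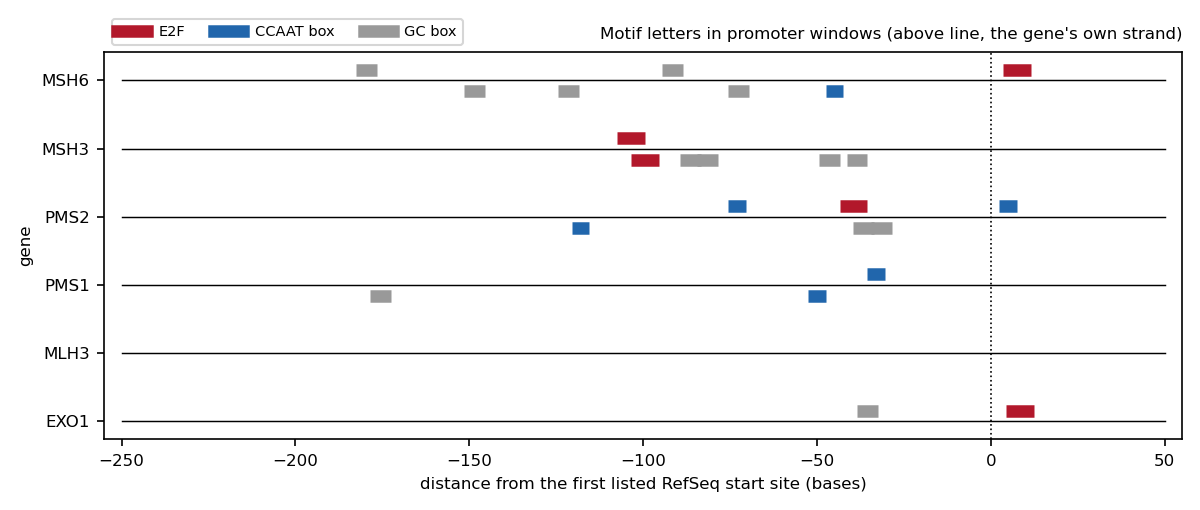
Position of motif letters around the first listed RefSeq start of each gene, in bases before (negative) and from the start, with marks above a line on the gene's own strand and below it on the other. The E2F marks of EXO1 and MSH6 lie just past the start, those of MSH3 and PMS2 before it, and MLH3 has no mark.

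Transcripts of all 6 genes were present in both lines. Each was counted in every library, with the lowest value, 599 counts, for EXO1 in SW48 sgWRN2 library B. Counts do not show whether a gene is intact or makes protein, and neither was examined. Levels of different genes were compared on the authors' per-length scale, read here as FPKM. In SW48 with sgCh2-2 the order was MSH6 at a mean of 26.53 FPKM, EXO1 at 17.98, PMS2 at 16.47, MSH3 at 13.06, PMS1 at 11.07 and MLH3 at 6.737 FPKM. In OVK18 with sgCh2-2 the order was MSH6 at a mean of 46.48 FPKM, PMS1 at 18.75, PMS2 at 15.21, MSH3 at 11.73, EXO1 at 10.56 and MLH3 at 6.649 FPKM. Neighbours in either order did not overlap between their 2 control libraries, which is a small number to judge spread by. MSH6 stood at the 81.5th percentile of the tested genes in SW48 and at the 90th in OVK18. MLH3 stood near the middle, at the 48.6th percentile in SW48 and the 49.9th in OVK18.

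**Figure D2:**
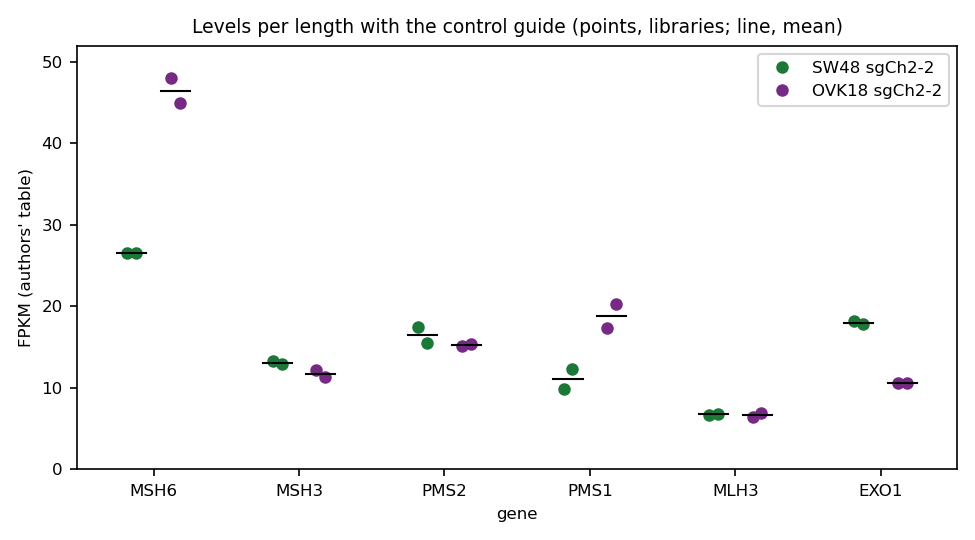
Level per length in FPKM of each gene with the control guide, SW48 libraries left and OVK18 libraries right for each gene, with lines at the means of 2 libraries. MSH6 is the highest in both lines, PMS1 and MSH6 are higher in OVK18, and EXO1 is higher in SW48.

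Between the lines with the control guide, MSH6 and PMS1 were lower in SW48 than in OVK18 and EXO1 was higher, while MSH3, PMS2 and MLH3 did not pass the test. That is 3 of 6 genes called at an adjusted p under 0.05, 1 higher and 2 lower, when 68.6% of all tested genes were called, 33.9% higher and 34.7% lower. The share called among the 6 is no larger than that background. The p-values here and below come from edgeR's quasi-likelihood test over all 14199 genes, Benjamini-Hochberg adjusted, and fold changes are given on the log2 scale with their standard error (SE).

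The MSH6 level was 135.8 CPM in SW48 library A and 142.1 CPM in library B, against 250.7 CPM in OVK18 library A and 243.8 CPM in library B. The lines were far apart with little spread within either, and the log2 difference was -0.83 (SE 0.0918, adjusted p = 4.74e-06), or 0.562-fold. Non-overlap of this kind was common between the lines, where 42.6% of all tested genes lay lower in both SW48 libraries and 41.6% higher. FBXO11, a ubiquitin ligase subunit gene that lies tail to tail with MSH6 and overlaps it in GENCODE v29, differed in the same direction, by -1.89 (SE 0.124, adjusted p = 3.32e-08). The strand setting of the counting is not given in the sources used here, and the part of shared reads in the MSH6 difference was not tested. The SW48 libraries held EXO1 at 75.63 and 79.2 CPM, while the OVK18 libraries held it at 47.26 and 48.24 CPM. Its log2 difference was 0.70 (SE 0.113, adjusted p = 0.000144), or 1.62-fold. Of the 38 S phase genes listed below, 28 were called higher in SW48 and 1 lower, against 33.9% and 34.7% of all tested genes. Their estimates were positive for 35 of 38, with a median of 0.82, so EXO1 lay below that median. The part of these genes in the EXO1 difference between the lines was not tested. For PMS1 the SW48 values were 42.25 and 56.35 CPM, against OVK18 values of 77.51 and 94.12 CPM. Its replicates were spread more widely, the log2 difference was -0.80 (SE 0.216, adjusted p = 0.00543), and the groups did not overlap, as for the 42.6% of genes above. Without SW48 sgCh2-2 library A the PMS1 difference was -0.61 with an adjusted p of 0.0554, in a range of 7.35e-08 to 0.0554 over the alternatives.

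The other 3 genes lay close together in the 2 lines. MLH3 measured 65.96 and 70.29 CPM in SW48 libraries, against 64.39 and 71.55 CPM in OVK18 libraries, with a 95% interval of the log2 difference of -0.34 to 0.35. MSH3 measured 74.38 and 76.66 CPM in SW48 libraries, against 70.79 and 70 CPM in OVK18 libraries, with an interval of -0.20 to 0.40. PMS2 measured 47.54 and 44.03 CPM in SW48 libraries, against 41.59 and 44.55 CPM in OVK18 libraries, with an interval of -0.21 to 0.39. Reads of PMS2 can be split with near-identical copies, so its level is uncertain. Of the 19 copy symbols searched 7 were in the table and 6 were tested. PMS2P1, PMS2P3, PMS2L2 and PMS2CL were higher in SW48, by 0.53, 0.82, 1.39 and 0.58 on the log2 scale with adjusted p between 0.00622 and 0.0325, beside the 33.9% of all tested genes called higher. The PMS2L2 difference rests on few counts, 27 and 8 in the SW48 libraries against 6 and 9 in the OVK18 libraries. PMS2P4 and PMS2P5 did not pass the test, and PMS2P9 had too few counts to be tested.

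Under the WRN guides, EXO1 was the gene that moved most, and it moved in SW48 with sgWRN2. It was at 43.81 and 38.21 CPM with sgWRN2 and at 62.08 and 71.88 CPM with sgWRN3, against 75.63 and 79.2 CPM with sgCh2-2. All 4 WRN-guide libraries lay below both controls, as they did for 5.33% of all tested genes, and the sgWRN2 libraries lay below the sgWRN3 libraries with no overlap, as they did for 13.9%. With sgWRN2 EXO1 fell by 0.92 log2 units (SE 0.115) to 0.53-fold of the control, at an adjusted p of 0.00107 and with a 95% interval of -1.20 to -0.63. This call held in each of 19 alternatives, with adjusted p between 5.37e-11 and 0.0211. On the per-length scale EXO1 took the 2nd place among the 6 genes in SW48 with sgCh2-2. It held the 3rd place with sgWRN3, at 14.8 FPKM, and the 5th with sgWRN2, at 8.982 FPKM.

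Both WRN guides are set against the same control libraries. With sgWRN3 alone the SW48 EXO1 difference was -0.21 (SE 0.113, adjusted p = 1). No gene of the 14199 was called in SW48 with sgWRN3, so the background is 0%. By edgeR 262 genes had an unadjusted p under 0.05, and other tools and settings called at most 22 genes. The guides differed from each other in SW48, with EXO1 at -0.71 for sgWRN2 minus sgWRN3 (SE 0.116, adjusted p = 0.016). That was 1 of 6 genes called, against 0.944% of all tested genes. This call was lost without sgWRN2 library A (-0.81, adjusted p = 0.0905), sgWRN2 library B (-0.63, adjusted p = 0.171) or sgWRN3 library B (-0.62, adjusted p = 0.133), in a range of 2.47e-06 to 0.171. Where a library is left out, the other library of its group is assumed to vary as the other groups do.

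Averaged over both WRN guides in SW48, EXO1 was lower, at a log2 difference of -0.56 (SE 0.0967, adjusted p = 0.0196). It was the only one of the 6 genes called, against 0.866% of all tested genes called and 0.613% called lower. The average hides the gap between the guides. Without the sgWRN2 libraries it was -0.21 with an adjusted p of 1, in a range of 3.03e-05 to 1. The call also did not hold without sgCh2-2 library A or B, sgWRN2 library B or sgWRN3 library A of SW48, with log2 differences of -0.61, -0.54, -0.52 and -0.52 and adjusted p of 0.0843, 0.225, 0.0877 and 0.0607.

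In OVK18, EXO1 was at 39.61 and 35.95 CPM with sgWRN2 and at 43.16 and 41.2 CPM with sgWRN3, against 47.26 and 48.24 CPM with sgCh2-2. Again all 4 WRN-guide libraries lay below both controls, as for 3.84% of all tested genes. The difference did not pass the test, at -0.34 with sgWRN2 (SE 0.114, adjusted p = 0.211), -0.18 with sgWRN3 (SE 0.114, adjusted p = 1) and -0.26 over both guides (SE 0.0978, adjusted p = 1). Of the 6 genes 0 were called in OVK18 over both guides, where 0.0282% of all genes were called and 573 genes had an unadjusted p under 0.05. With sgWRN2 alone 0 of 6 were called, against 0.796% of all tested genes, and with sgWRN3 alone 0 of 6, against 0%, where 116 genes had an unadjusted p under 0.05 and other tools and settings called at most 2 genes. Between the guides in OVK18 0 of 6 were called, against 0.747%, and no alternative called any of the 6 in these 4 OVK18 comparisons. The difference between lines in the WRN-guide effect, SW48 minus OVK18, was -0.30 for EXO1 (SE 0.139, unadjusted p = 0.0496, adjusted p = 1). None of the 6 genes was called there, when 0.0282% of all genes were, so a larger EXO1 response in SW48 is not shown by this test.

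**Figure D3:**
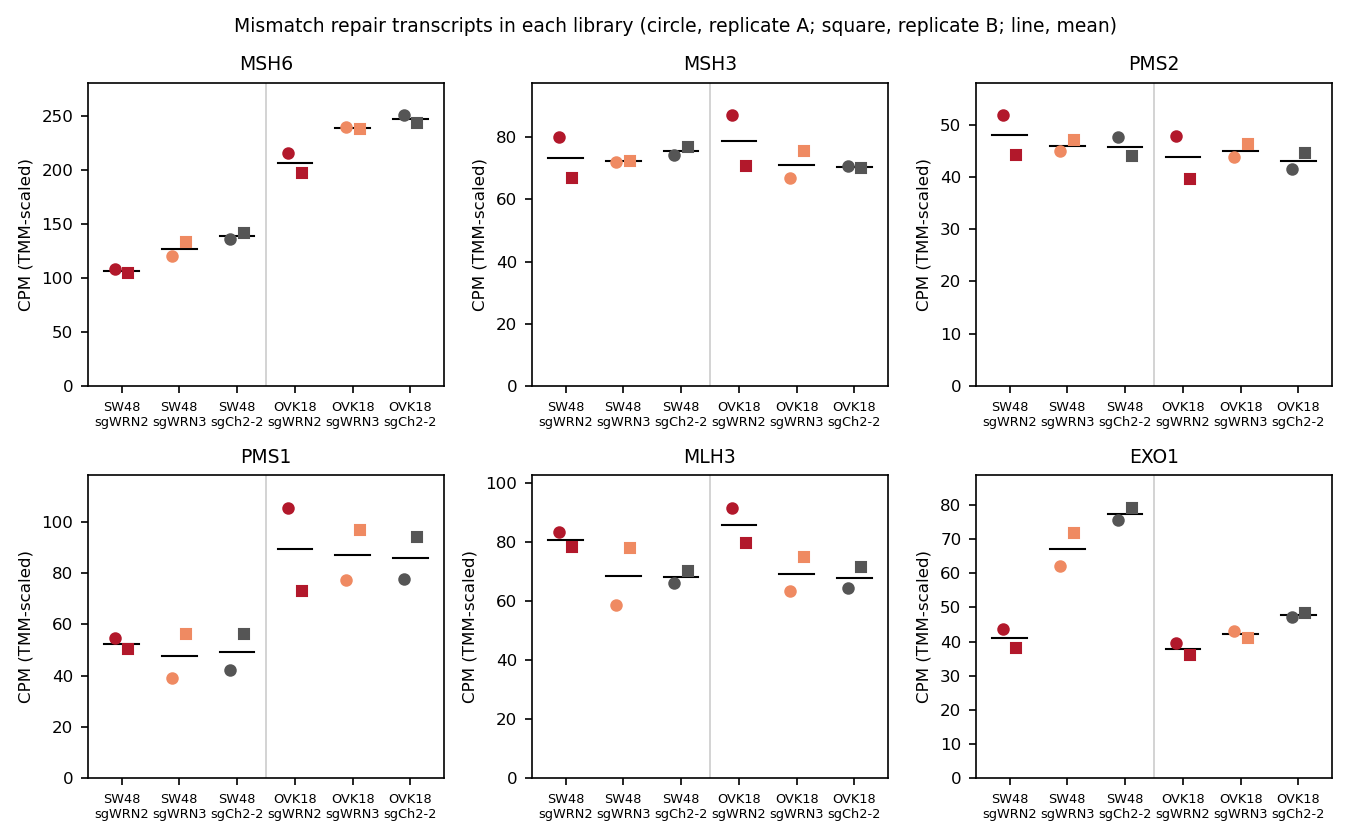
CPM, scaled by TMM, of the 6 genes in each of the 12 libraries, with circles for replicate A, squares for replicate B and lines at the means of 2. EXO1 and MSH6 are lowest in the sgWRN2 libraries of both lines, but neither passed the test in OVK18. With sgWRN2, 17.2% of all tested genes lay below both controls in SW48 and 21.4% in OVK18. PMS1 shows the widest spread between replicates.

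MSH6 followed a similar but shallower course. In SW48 it was at 108.6 and 104.4 CPM with sgWRN2 and at 120.8 and 133.6 CPM with sgWRN3, against 135.8 and 142.1 CPM with sgCh2-2. With sgWRN2 it fell by 0.38 (SE 0.0924, adjusted p = 0.0462), to 0.767-fold. With EXO1 that made 2 of 6 genes called lower in SW48 with sgWRN2, when 3.08% of all tested genes were called and 1.95% were called lower. The MSH6 call was close to the threshold and was lost in 9 of 19 alternatives, with adjusted p between 0.00304 and 0.243. These include leaving out sgCh2-2 library A or B or sgWRN2 library A or B of SW48, or sgWRN3 library B of OVK18, at differences of -0.45, -0.38, -0.41, -0.37 and -0.40. With sgWRN3 the SW48 difference was -0.13 (SE 0.092, adjusted p = 1).

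In OVK18 MSH6 was at 216.3 and 197.8 CPM with sgWRN2 and at 239.9 and 237.9 CPM with sgWRN3, against 250.7 and 243.8 CPM with sgCh2-2. The difference was -0.26 with sgWRN2 (SE 0.091, adjusted p = 0.231) and -0.05 with sgWRN3 (SE 0.0909, adjusted p = 1). As for EXO1, all 4 WRN-guide libraries lay below both controls in both lines, as they did for 5.33% of all tested genes in SW48 and 3.84% in OVK18. The neighbour FBXO11 did not move with MSH6 under the guides, at 0.06 over both guides in SW48 (SE 0.106) and 0.03 in OVK18 (SE 0.104).

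MSH3, the other MutS-type gene, did not pass the test in any WRN-guide comparison. It was at 80.06 and 66.79 CPM with sgWRN2 and at 71.86 and 72.43 CPM with sgWRN3 in SW48, against 74.38 and 76.66 CPM with sgCh2-2. In OVK18 it was at 86.93 and 70.75 CPM with sgWRN2 and at 66.86 and 75.38 CPM with sgWRN3, against 70.79 and 70 CPM with sgCh2-2. In SW48 the sgWRN2 libraries straddled the controls and both sgWRN3 libraries lay below them, as for 10.6% of all tested genes, at a log2 difference of -0.07 with sgWRN3 (SE 0.124, adjusted p = 1). In OVK18 neither guide's libraries lay clear of the controls. The 95% interval over both guides was -0.31 to 0.21 in SW48 and -0.17 to 0.35 in OVK18. In SW48 the ratio of MSH6 to MSH3 on the FPKM scale was 1.503 and 1.721 in the sgWRN2 libraries, 1.837 and 2.073 in the sgWRN3 libraries, and 2.006 and 2.058 in the controls. In OVK18 the ratio was 2.843 and 3.103 in the sgWRN2 libraries, 3.969 and 3.566 in the sgWRN3 libraries, and 3.96 and 3.966 in the controls. The sgWRN2 libraries had the lowest ratios in both lines, and the sgWRN3 libraries overlapped the controls in both. The ratio was described and not tested.

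PMS1 and PMS2 have head-to-head neighbours in GENCODE v29. ORMDL1, a regulator of sphingolipid synthesis beside PMS1, was at -0.17 with sgWRN2 in SW48 (SE 0.145), and AIMP2, a scaffold of the tRNA synthetase complex beside PMS2, at -0.11 (SE 0.111), and neither was called.

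**Figure D4:**
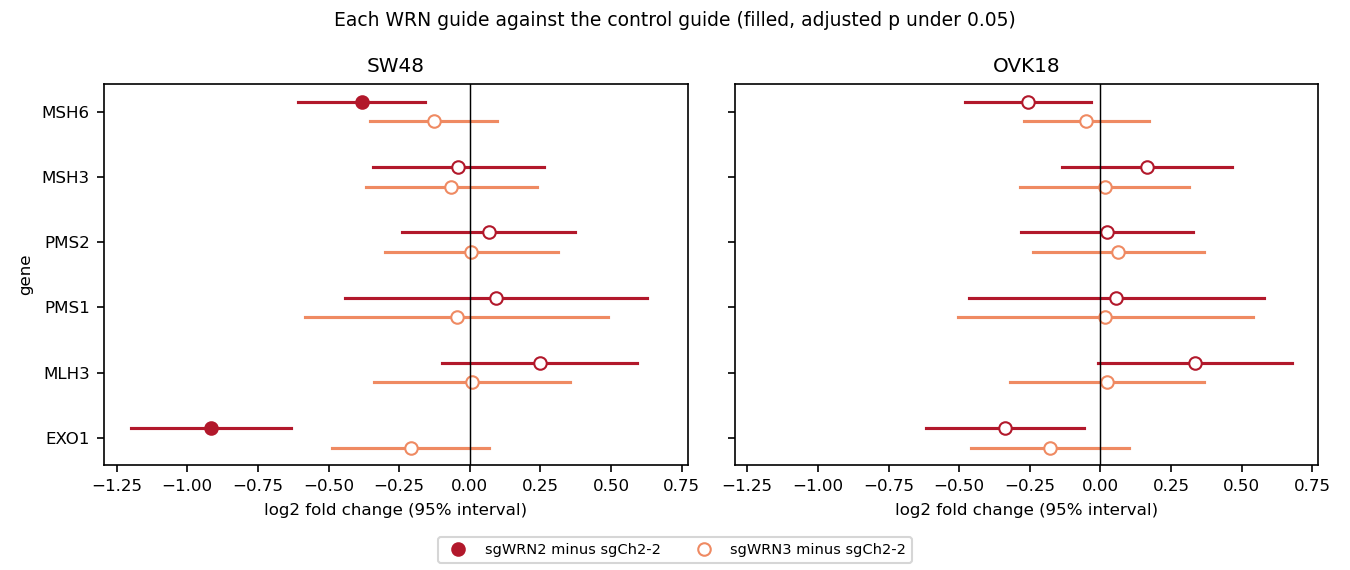
Log2 fold change of each WRN guide minus sgCh2-2 in SW48 (left) and OVK18 (right), with 95% intervals from 6 residual degrees of freedom and filled points for an adjusted p under 0.05. The filled points are EXO1 and MSH6 with sgWRN2 in SW48, at -0.92 and -0.38, and both guides share the same control libraries.

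The MutL-type genes did not pass the test in any WRN-guide comparison. MLH3 was at 83.21 and 78.4 CPM with sgWRN2 and at 58.74 and 78.1 CPM with sgWRN3 in SW48, against 65.96 and 70.29 CPM with sgCh2-2. In OVK18 it was at 91.59 and 79.79 CPM with sgWRN2 and at 63.46 and 74.76 CPM with sgWRN3, against 64.39 and 71.55 CPM with sgCh2-2. Both sgWRN2 libraries lay above both controls in each line, and the sgWRN3 libraries lay on either side of them. The difference with sgWRN2 was 0.25 in SW48 (SE 0.142, adjusted p = 0.52) and 0.33 in OVK18 (SE 0.14, unadjusted p = 0.0346, adjusted p = 0.313). With sgWRN2 21.6% of all tested genes lay above both controls in SW48 and 19.2% in OVK18.

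PMS2 was at 51.74 and 44.21 CPM with sgWRN2 and at 44.91 and 47.04 CPM with sgWRN3 in SW48, against 47.54 and 44.03 CPM with sgCh2-2. In OVK18 it was at 47.88 and 39.57 CPM with sgWRN2 and at 43.73 and 46.32 CPM with sgWRN3, against 41.59 and 44.55 CPM with sgCh2-2. The groups overlapped in both lines, and PMS2 varied least among the 6, with a standard deviation (SD) of 0.0863 on the line-centred log2 scale over 12 libraries. The interval over both guides was -0.23 to 0.30 in SW48 and -0.22 to 0.31 in OVK18. None of its 6 tested copies was called with either guide.

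PMS1 was at 54.58 and 50.27 CPM with sgWRN2 and at 38.88 and 56.32 CPM with sgWRN3 in SW48, against 42.25 and 56.35 CPM with sgCh2-2. In OVK18 it was at 105.4 and 72.88 CPM with sgWRN2 and at 77.09 and 96.71 CPM with sgWRN3, against 77.51 and 94.12 CPM with sgCh2-2. Library A was below library B with sgWRN3 and with sgCh2-2 in both lines, and above it with sgWRN2 in both. In OVK18, and in SW48 for sgWRN3 and sgCh2-2, the replicates lay farther apart than the group means did. The interval over both guides was -0.44 to 0.49 in SW48 and -0.41 to 0.49 in OVK18.

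After excision, replication factors close the gap, and some of their subunits fell with sgWRN2 in SW48. The list holds the clamp PCNA, the clamp loader subunits RFC1 to RFC5, the single-strand binding subunits RPA1 to RPA3, the polymerase delta subunits POLD1 to POLD4 and the ligase LIG1, and all 14 genes were tested. It was chosen with earlier results of these data known. With sgWRN2 in SW48 5 of 14 fell, against 1.95% of all tested genes, 0 rose, and 13 of 14 estimates were negative with a median log2 difference of -0.473, beside a median of 0.0188 over all tested genes. RFC5 averaged 35.7 ± 0.847 CPM with sgWRN2 and 51.34 ± 2.69 CPM with sgWRN3, against 60.59 ± 3.78 CPM with sgCh2-2 (SD, n = 2 each). It fell by 0.76 with sgWRN2 (SE 0.108, adjusted p = 0.00225). RFC2 fell by 0.65 (adjusted p = 0.0084), POLD3 by 0.64 (adjusted p = 0.0141) and RFC4 by 0.66 (adjusted p = 0.0279). The fifth was RFC3, at -0.76 (adjusted p = 0.0373). The sliding clamp PCNA was at -0.01 (SE 0.11) and the 1 positive estimate was POLD4 at 0.46 (SE 0.231), and neither passed the test.

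The count of 5 was 2 without SW48 sgCh2-2 library B and 1 without either sgWRN2 library of SW48. Over both guides in SW48 RFC5 alone was called, at -0.50 (adjusted p = 0.0275), against 0.613% of all tested genes called lower, with a list median of -0.297. That count was 0 without any 1 of sgCh2-2 A, sgCh2-2 B, sgWRN2 A, sgWRN2 B or sgWRN3 A of SW48 or sgWRN3 B of OVK18, and 2 without sgWRN3 B of SW48. With sgWRN3 alone 0 of 14 were called, 11 of 14 estimates were negative and the median was -0.101. In OVK18 0 of 14 were called with either guide. There 13 of 14 estimates were negative with sgWRN2 (median -0.147) and 11 of 14 with sgWRN3 (median -0.0438). Between the lines with the control guide 12 of 14 were higher in SW48, led by POLD3 at 2.19 and RFC2 at 1.61, and POLD4 was lower at -0.57 (adjusted p = 0.0379), when 33.9% of all tested genes were called higher and 34.7% lower.

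EXO1 is known as a gene whose transcript rises with entry into S phase, and a list of 38 S phase genes was set beside it. The list was chosen with earlier results of these data known, so its counts are descriptions and not an independent test. With sgWRN2 in SW48 29 of 38 fell, against 1.95% of all tested genes, all 38 estimates were negative, and the median was -0.712, so EXO1 at -0.92 lay below the list's median. Among the leading genes by p were RRM2 (-1.03), E2F8 (-1.07) and GINS2 (-0.95), genes of nucleotide supply, transcription control and replication forks. The count was 16 without sgWRN2 library A and 11 without sgWRN2 library B of SW48. Over both guides in SW48 10 of 38 fell, against 0.613% of all tested genes, with a median of -0.46, and between 0 and 24 did over the alternatives, with 0 without either sgCh2-2 library, 2 without either sgWRN2 library and 4 and 6 without sgWRN3 library A and B of SW48. It was also 16 and 20 without sgWRN2 library A and B of OVK18 and 6 without sgWRN3 library B of OVK18. With sgWRN3 alone in SW48 0 of 38 were called, though all 38 estimates were negative, with a median of -0.158. This count was 0 in each of 19 alternatives to that comparison. Not among these 19 are the fits without the sgWRN2 libraries. There 0 of 38 were called without a replicate block and 5 of 38 with one, which was chosen after seeing the data.

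In OVK18 2 of 38 fell with sgWRN2, when 0.261% of all tested genes were called lower. They were MCM3 at -0.45 (adjusted p = 0.0448) and CDC6 at -0.79 (adjusted p = 0.0112). Of the 38 estimates 37 were negative, with a list median of -0.30. With sgWRN3 0 of 38 were called there, and 34 of 38 estimates were negative with a median of -0.10. Over both guides in OVK18 0 of 38 were called, and all 38 estimates were negative with a median of -0.215. For the difference between lines in the WRN-guide effect, SW48 minus OVK18, all 38 estimates were negative with a median of -0.256. There 0 of 38 were called, so a larger fall in SW48 is not shown by this test. Between the guides in SW48 14 of 38 were lower with sgWRN2 than with sgWRN3, against 0.655% of all genes, with a median of -0.495. That count was 0 without sgWRN2 library A, sgWRN2 library B or sgWRN3 library B and 6 without sgWRN3 library A of SW48, and 9 without sgWRN3 library B of OVK18. It was 27 with DESeq2 and 2 with only the libraries of the line. CDKN1A, the p53 target that arrests the cycle, was at 945.4 and 1008 CPM with sgWRN2 and at 655 and 519.3 CPM with sgWRN3 in SW48, against 412.2 and 326.1 CPM with sgCh2-2. In OVK18 CDKN1A was at 253.1 and 294.9 CPM with sgWRN2 and at 187 and 171.9 CPM with sgWRN3, against 179 and 173.3 CPM with sgCh2-2. CDKN1A was called higher with sgWRN2 in SW48, at a log2 difference of 1.4. It was not called with sgWRN3 in SW48 (0.669), nor in OVK18 with sgWRN2 (0.637) or sgWRN3 (0.0267). The part of these genes in the EXO1 difference was not tested.

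**Figure D5:**
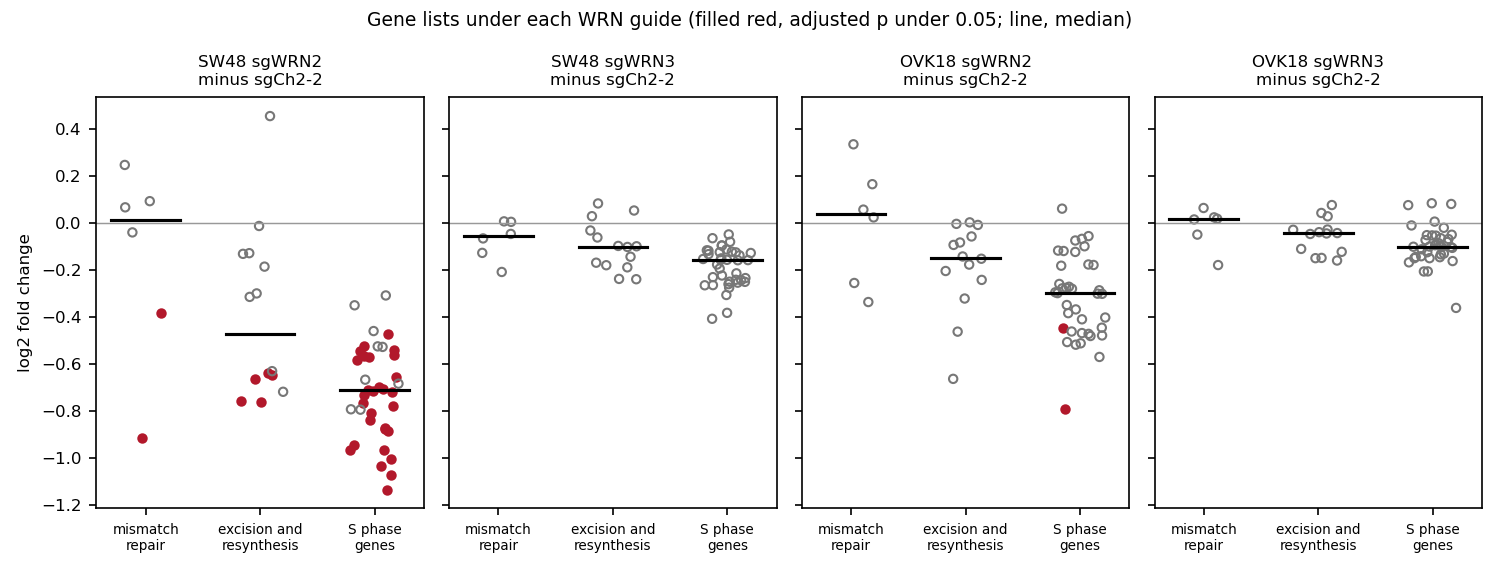
Log2 fold change of each WRN guide minus sgCh2-2 for the 6 mismatch repair genes, the 14 excision and resynthesis genes and the 38 S phase genes, with a line at each median and red points for an adjusted p under 0.05. In SW48 with sgWRN2 the S phase median is -0.712 and the resynthesis median -0.473, while the mismatch repair median is 0.0132, with EXO1 and MSH6 apart from the other 4.

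The genes with the pattern most like EXO1 were sought over the 12 libraries by the root-mean-square (RMS) difference of log2 CPM after centring each line, among 11957 genes. BUB1B, a mitotic checkpoint kinase, was closest at an RMS difference of 0.0434. WDR76 followed at 0.0438, CLSPN, a replication checkpoint adaptor, at 0.0545, ANLN, a cytokinesis scaffold, at 0.0577 and ERCC6L, a mitotic DNA translocase, at 0.0615. For MLH3 the closest were RBM26 (0.0407), ZCCHC6, NIPBL, TAX1BP1 and YTHDC2 (0.0532). For PMS1 they were ZNF800 (0.0585), STXBP3, ZNF518A, CCDC112 and FAM76B (0.0708). The SD of these line-centred values was 0.302 for EXO1, 0.204 for PMS1 and 0.176 for MLH3, at or above the median of 0.176 over all tested genes. MSH6 (0.144), MSH3 (0.104) and PMS2 were below it and were given no such list.

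The meiotic relatives were scarcely expressed. MSH4 averaged 0.786 ± 0.341 CPM in SW48, against 3.35 ± 1.88 CPM in OVK18 (SD, n = 2 each), a log2 difference of -2.18 (SE 0.535, adjusted p = 0.00302), and it did not pass the test under any guide. MSH5 had between 0 and 3 counts per group and was not tested. Of 4 factors tied to mismatch repair, 1 was called with a WRN guide. HMGB1, a chromatin protein that assists excision in vitro, averaged 184.3 ± 17.9 CPM with sgWRN2 in SW48, against 277.7 ± 34.8 CPM with sgCh2-2 (SD, n = 2 each). It fell by 0.59 (SE 0.135, adjusted p = 0.0342), when 1.95% of all tested genes were called lower, and its many near-identical copies make its counts uncertain. SETD2, which writes the histone mark that recruits MSH6 to chromatin, was lower in SW48 than in OVK18 at a log2 difference of -0.89 (adjusted p = 1.18e-05). FAN1, a nuclease that binds MutL proteins, was higher in SW48 by 0.42 (adjusted p = 0.00918), and MCM9, a helicase that works with mismatch repair, was not called between the lines. None of SETD2, FAN1 and MCM9 was called with a WRN guide, and their log2 differences with sgWRN2 in SW48 were 0.04, 0.00 and -0.34.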

How the data were processed

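RNA-seq libraries of 6 groups, 2 each, were compared. The authors deposited a table of raw counts per gene and a second table with decimals. Its unit is named in no header and was taken to be FPKM, since the ratio of counts to these values follows transcript length across 9881 genes with at least 100 counts (Spearman rho 0.789). Genome build hg19, bcl2fastq 2.18, STAR 2.5 and Cufflinks 2.2.1 are named in the submitters' processing notes. Annotation and strand setting are not given in the sources used here. The 92 spike-in rows, all at 0, were left out. RNA came from a column kit and libraries from an mRNA kit, per the labels' protocols.

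Counts were tested with edgeR 4.0.16 in R 4.3.3 (TMM scaling, filterByExpr, robust quasi-likelihood fit with 1 coefficient per group and 6 residual degrees of freedom). All contrasts came from that fit of 12 libraries, with Benjamini-Hochberg adjusted p under 0.05 over 14199 genes. CPM values were computed here from counts and TMM-scaled library sizes, and percentiles are among tested genes on the authors' FPKM scale. Alternatives were RLE scaling, no filter, DESeq2 1.42.0, the libraries of a line alone, a replicate block, limma 3.58.1 on log2(FPKM + 1) or log2(FPKM + 0.1), no sgWRN2 libraries and each library left out. Without the sgWRN2 libraries, the fit with a block was chosen after seeing the data. Replicates differed beyond counting noise (chi-square per gene 8.67 to 24.9). Intervals use the 6 residual degrees of freedom alone and so are wider than edgeR's moderated test implies.

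The genes and lists were chosen with earlier results of these data known, as were the motifs. Named genes are the 6 genes, WRN, CDKN1A, the meiotic, associated, copy and neighbour lists, up to 4 by p of the resynthesis and S phase lists among those past the threshold, and the 5 genes of closest pattern for genes whose SD exceeded the median. Of the genes so chosen, 1 is not reported here. RFC3, PCNA and POLD4 values, beyond this rule, were added after they were seen. Promoters are from RefSeq on GRCh38.p14, where all 6 genes were found. Gene arrangement is from GENCODE v29 on GRCh38.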

Additional observations from a re-analysis of the deposited data

How the results depend on the processing

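MSH6 and EXO1 kept their call and direction between the lines in each of 18 alternatives, and EXO1 kept its call with sgWRN2 in SW48 in each of 19. The count of the 6 genes called over both WRN guides in SW48, 1 in the report, was 0 with only the 6 libraries of the line, with a replicate block, without the 4 sgWRN2 libraries and without them with a replicate block, and 2 with limma on FPKM at a pseudocount of 1 or of 0.1. Without 1 library it lay between 0 and 1. With sgWRN2 in SW48 the count of 2 became 1 with RLE scaling, no filter, only the line's libraries or a replicate block, and lay between 1 and 2 without 1 library. For sgWRN2 minus sgWRN3 in SW48 the count of 1 became 0 with only the line's libraries or a replicate block and 2 with limma at 0.1, and lay between 0 and 1 without 1 library. The block is a letter that libraries share. The differences of A minus B across genes correlated between sgCh2-2 and sgWRN3 at 0.413 in SW48 and 0.39 in OVK18. For sgCh2-2 and sgWRN2 the values were -0.089 and -0.105, and for sgWRN2 and sgWRN3 0.00693 and -0.226. The main fit did not pair the libraries, so spread that sgCh2-2 and sgWRN3 share by letter stays in its errors. Without the sgWRN2 libraries, EXO1 with sgWRN3 in SW48 was at -0.21 (SE 0.102). With a block as well it was also at -0.21 (edgeR, SE 0.0619, adjusted p = 0.133). With the block, the S phase count between the guides in SW48 (14) was 3, and without the sgWRN2 libraries, where sgWRN3 alone is set against sgCh2-2, the S phase count in SW48 was 5 with a block, added after seeing the data, and 0 with none. The number of all genes called ranged over the alternatives from 0 to 292 for both guides in SW48 (123 in the report), 148 to 707 for sgWRN2 in SW48 (437), 0 to 30 for both guides in OVK18 (4), 18 to 439 for sgWRN2 in OVK18 (113), 0 to 17 for the difference between lines (4), 3 to 334 between the guides in SW48 (134) and 11 to 525 between them in OVK18 (106). The S phase count in OVK18 with sgWRN2 (2) ranged from 0 to 8, and the count of 5 resynthesis genes in SW48 with sgWRN2 from 1 to 7.

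Changes of sign occurred for MLH3, MSH3, PMS1 and PMS2 in comparisons where they were not called, with no adjusted p under 0.693 there, and the cause was not tested. Between the lines MLH3 was -0.015 with RLE scaling, -0.016 with DESeq2 and -0.033 with a replicate block, and with that block it was -0.00114 for sgWRN3 in SW48. With limma on FPKM at a pseudocount of 1, PMS1 was -0.038 and PMS2 -0.037 over both guides in SW48, PMS2 was -0.021 with sgWRN2 and -0.053 with sgWRN3 and MLH3 -0.038 with sgWRN3 in SW48, MLH3 was -0.00276 with sgWRN3 in OVK18, and between the guides MSH3 was -0.0070 in SW48 and PMS2 0.0035 in OVK18. At a pseudocount of 0.1 these values were -0.041, -0.039, -0.022, -0.056, -0.043, -0.00339, -0.0076 and 0.0036. Without the sgWRN2 libraries PMS1 was -0.045 in SW48, and with a replicate block as well it was -0.058 and MLH3 -0.0076. When 1 library was left out, MLH3 ranged from -0.083 to 0.076 between the lines. Over both guides in SW48 MSH3 ranged from -0.12 to 0.0025, PMS1 from -0.19 to 0.23 and PMS2 from -0.030 to 0.083. Over both guides in OVK18 PMS1 ranged from -0.11 to 0.19 and PMS2 from -0.027 to 0.11. For the difference between lines MLH3 ranged from -0.17 to 0.031, PMS1 from -0.23 to 0.19 and PMS2 from -0.087 to 0.057. With sgWRN2 in SW48 MSH3 ranged from -0.18 to 0.070, PMS1 from -0.14 to 0.28 and PMS2 from -0.053 to 0.16. With sgWRN3 in SW48 MLH3 ranged from -0.20 to 0.19, PMS1 from -0.33 to 0.19 and PMS2 from -0.041 to 0.066. With sgWRN2 in OVK18 PMS1 ranged from -0.22 to 0.31 and PMS2 from -0.10 to 0.17. With sgWRN3 in OVK18 MLH3 ranged from -0.12 to 0.13, MSH3 from -0.095 to 0.093 and PMS1 from -0.18 to 0.17. Between the guides in SW48 MSH3 ranged from -0.11 to 0.13, PMS1 from -0.11 to 0.41 and PMS2 from -0.055 to 0.15. Between the guides in OVK18 PMS1 ranged from -0.22 to 0.30 and PMS2 from -0.15 to 0.12. With 2 libraries per group the intervals are wide. For MLH3 with sgWRN2 in OVK18 the 95% interval from 6 residual degrees of freedom, -0.0088 to 0.68, holds 0, whereas edgeR's test, which also borrows spread from other genes, gave an unadjusted p of 0.0346 (adjusted p = 0.313).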
